A study of Mus musculus with 2 samples.

Results

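The CDK inhibitors and D cyclins are a set of 10 genes chosen by name and function, namely the 3 Cip/Kip inhibitors (Cdkn1a, Cdkn1b and Cdkn1c), the 4 INK4 genes (Cdkn2a, Cdkn2b, Cdkn2c and Cdkn2d) and the 3 D cyclins (Ccnd1, Ccnd2 and Ccnd3). The rule that selects them uses no measured value, although earlier results of these data were known when it was set. They are 10 of the 20660 genes that could be named on the array, and 14 probes in 23 spots read them. In ESAM-KO pre CFU-E after 5-FU, both Cip/Kip genes that could be measured gave less signal than in WT cells, Cdkn1a by 3.33-fold and Cdkn1b by 2.23-fold, while the D cyclin Ccnd1 gave 3.86-fold more. Cdkn2c, an INK4 gene, was 1.76-fold higher. Cdkn2a, Cdkn2d, Ccnd2 and Ccnd3 stayed within 2-fold of WT, while Cdkn2b gave only a lower bound and Cdkn1c no ratio.

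The study asked how loss of ESAM, a junction protein of endothelial cells and a marker of hematopoietic stem cells, alters erythroid progenitors that recover from 5-FU, a drug that kills dividing cells. The WT group was of C57BL/6 strain and wild type, and the ESAM-KO group was of the same strain and carried homozygous loss of Esam, which is absent from all cells of the body rather than from the erythroid lineage alone. Mice of both genotypes were 8 to 12 weeks old and received one injection of 120 mg/kg 5-FU 8 days before the marrow was taken, so no untreated cells were analysed here. The sorted cells carried c-Kit, endoglin and CD150 (c-Kit+ endoglin+ CD150+), lacked lineage markers and Sca1 (Lin- Sca1-), and had little CD41 and little or no FCgRII/III (CD41Lo FCgRII/III-/Lo), which defines the pre CFU-E, a progenitor upstream of the erythroid colony-forming cell. Marrow of 3 mice was pooled for each genotype, and each pool was read on 1 Agilent array after whole transcriptome amplification and Cy3 labelling. There was therefore no replicate and no test, and every comparison below is between these 2 arrays, for which genotype, pool, sort and amplification cannot be told apart. In sorted bulk RNA, fewer cells of a type and less RNA per cell cannot be told apart either.

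D cyclins bind CDK4 and CDK6 and carry growth signals to the retinoblastoma protein, whose phosphorylation frees E2F factors to start the S phase program. INK4 proteins bind CDK4 and CDK6 and keep D cyclins from activating them, whereas Cip/Kip proteins bind complexes of cyclins and CDKs more widely and restrain the cyclin E and cyclin A kinases. In the erythroid lineage, progenitors pass through fast divisions driven in part by D cyclins, and inhibitors of both families take part as maturing erythroblasts leave the cycle.

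Upstream sequence was taken for 7 of the 10 genes (all but Cdkn1c, Ccnd1 and Ccnd2), as 11 windows of 250 bases before an annotated start (RefSeq, GRCm38.p6). Both windows of Cdkn1a, that of Cdkn1b and 1 of the 2 of Cdkn2c are printed because these are inhibitors that lay apart from the middle of the array. Each runs 5′ to 3′ up to the base before the start. Capitals mark any match, on either strand, to a GATA motif (AGATAA or TGATAA), a GC box (GGGCGG), an E2F motif (TTTGGCGC or TTTCCCGC), a FOXO motif (GTAAACA), the box CCAAT or the p53 half-site.
Cdkn1a, upstream start, chr17:29090729-29090978, plus strand: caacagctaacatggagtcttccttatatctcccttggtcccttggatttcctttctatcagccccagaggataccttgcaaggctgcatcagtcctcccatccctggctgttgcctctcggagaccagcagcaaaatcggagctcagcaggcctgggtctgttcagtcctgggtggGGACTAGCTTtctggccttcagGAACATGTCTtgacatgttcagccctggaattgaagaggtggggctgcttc
Cdkn1a, downstream start, chr17:29093519-29093768, plus strand: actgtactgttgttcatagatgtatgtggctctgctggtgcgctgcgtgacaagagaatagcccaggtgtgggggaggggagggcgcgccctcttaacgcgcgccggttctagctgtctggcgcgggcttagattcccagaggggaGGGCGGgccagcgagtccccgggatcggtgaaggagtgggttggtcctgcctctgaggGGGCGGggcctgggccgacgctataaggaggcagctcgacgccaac
Cdkn1b, chr6:134920151-134920400, plus strand: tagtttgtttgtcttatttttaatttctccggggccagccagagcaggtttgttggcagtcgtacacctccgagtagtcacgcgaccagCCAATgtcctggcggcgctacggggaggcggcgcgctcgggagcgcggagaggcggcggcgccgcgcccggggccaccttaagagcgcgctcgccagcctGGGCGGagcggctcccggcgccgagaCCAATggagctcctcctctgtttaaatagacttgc
Cdkn2c, upstream start, chr4:109666757-109667006, minus strand: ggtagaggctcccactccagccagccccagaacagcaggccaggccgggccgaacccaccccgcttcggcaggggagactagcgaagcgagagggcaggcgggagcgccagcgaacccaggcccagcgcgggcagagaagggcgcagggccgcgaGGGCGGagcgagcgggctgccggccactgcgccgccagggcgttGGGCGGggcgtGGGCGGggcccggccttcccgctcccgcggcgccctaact

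The capitals differ between these genes. In the upstream Cdkn1a window they are 2 p53 half-sites, which begin 73 and 51 bases before the start, and 7.13% of the 32851 mouse windows of this length held at least 1. Among members the half-site was in 2 windows of 2 genes, the other being Cdkn2d, whose signal was within 2-fold. The downstream Cdkn1a start lies 2790 bases further on and its window holds 2 GC boxes in place of the half-sites. Cdkn1b has 2 CCAAT boxes and 1 GC box. The printed Cdkn2c window has 3 GC boxes and a GC content of 77.2%, while the window of its downstream start, not printed, has a GC content of 42.8% and no match, and the median of all windows was 52.4%. GC boxes were in 7 of the 11 member windows, of 6 genes, and in 32.7% of all windows, and CCAAT boxes were in 3 member windows and in 33.8% of all. No member window held a GATA match, a motif that 16.6% of all windows held. An E2F match was in 1 Cdkn2a window and a FOXO match in 1 Ccnd3 window, against 1.30% and 3.17% of all. These are matches of letters, and no binding was measured.

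The Pearson correlation of the arrays was 0.965 over the log2 signal of all probes well above background on both. That value follows brightness differences between probes and does not measure how far single genes differed. The log2 ratios of the named genes well above background on both arrays had an SD of 0.71. Between 57.3% and 61.1% of the 59305 spots were called well above background by the scanner software and none was saturated. Values below are the software's processed intensity, corrected for background, and a log2 ratio is ESAM-KO over WT after each array was set to its 75th percentile, which was 201.4 in WT and 251.1 in ESAM-KO. This scaling lowers every log2 ratio by 0.32 relative to the intensities as printed. The error given with a log2 ratio is the scanner software's own for the spots, and covers neither the pools nor the amplification. Kit, Eng, Slamf1 and Itga2b, for the surface proteins the sort selected, were all detected above background and lay within 2-fold. Of 5 measured genes listed for markers the sort excluded, Ly6a (Sca1) was lower, at 61.1 in WT and at background in ESAM-KO, but within 2-fold with normexp (-0.78). Fcgr3, Cd3e and Ptprc were within 2-fold. The sort excluded the Ptprc product CD45 only in its B220 form, so Ptprc does not mark excluded cells alone. Itgam (Mac1) was bright and within 2-fold on its main probe (76375.5 in WT and 82075.5 in ESAM-KO, log2 ratio -0.21). Its other probes were far dimmer. One read 81.7 in WT and 69.8 in ESAM-KO (log2 ratio -0.55). The other read 270 in WT and 116 in ESAM-KO (log2 ratio -1.54, past 2-fold). The Itgam probes thus disagreed in level and ratio, so neither the level nor the difference of this gene was settled. The erythroid regulators Gata1, Klf1 and Epor and the transferrin receptor gene Tfrc (log2 ratio 0.89) were also within 2-fold, while 4 of 8 erythroid markers, all of the maturing stage (Slc4a1, Alas2, Hba-a1 and Hbb-bs), were more than 2-fold lower in ESAM-KO. The signal of Esam was 27.4 in WT and 20.6 in ESAM-KO (log2 ratio -0.73, error 0.31), so the genotype label was not marked by a loss of this signal, and whether the probe lies in the deleted part is not given in the sources used here.

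Of the 10 members, 8 were well above background on both arrays, Cdkn2b was so in ESAM-KO only, and Cdkn1c was so on neither, which leaves 9 with a ratio. By the study's criterion of a change of more than 2-fold, 2 of the 9 were lower in ESAM-KO, where 8.43% of all 14136 named genes with a ratio were, and 1 was higher, where 6.99% were. Counts of 2 and 1 out of 9 are too small to set the members apart from these shares, and they did not all differ in one direction. The median log2 ratio of the 8 fully measured members was -0.05, beside -0.02 for all named genes. By family, 2 of 2 measured Cip/Kip genes were lower, none of 3 INK4 genes measured on both arrays was past 2-fold, and 1 of 3 D cyclins was higher. Cdkn2b, the fourth INK4 gene, had a bound that lies within 2-fold and does not set its size.

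**Figure D1:**
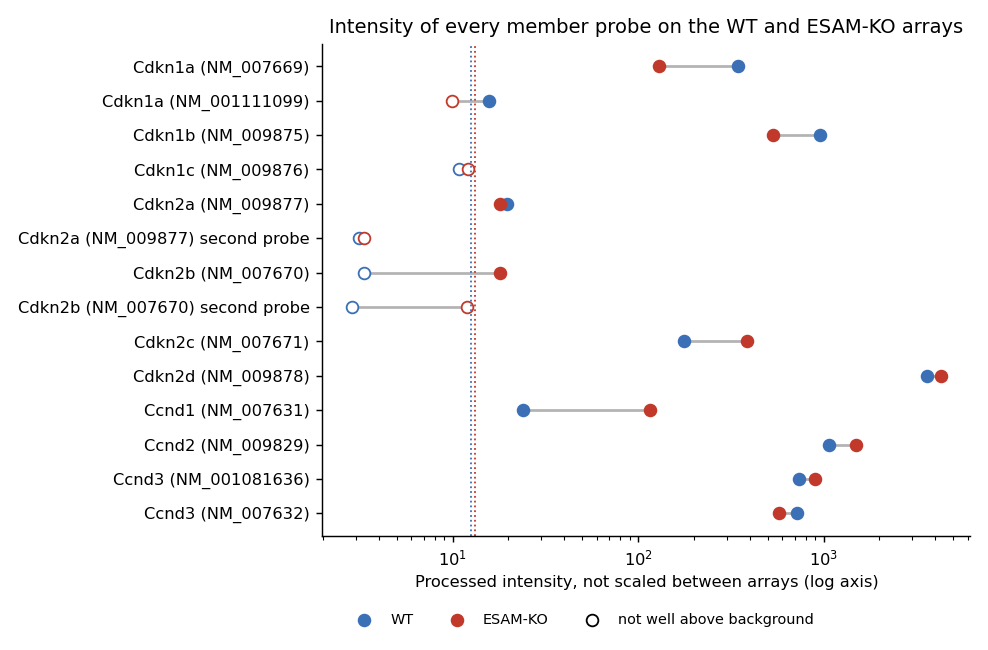
Processed intensity (horizontal log axis, not scaled between arrays) of all 14 member probes (rows, named by gene and transcript accession) on the WT array (blue) and the ESAM-KO array (red). Open circles were not well above background and the dotted lines mark the lowest signal above background on each array, 12.6 in WT and 13.2 in ESAM-KO. Cdkn1a and Cdkn1b sit to the left in ESAM-KO and Ccnd1 and Cdkn2c to the right, and distances are read along a row, since intensities of different probes are not comparable.

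Cdkn1a encodes p21, the inhibitor that p53 induces when DNA is damaged. Its main probe (NM_007669) was printed as 10 spots, which read between 312 and 367 in WT, with a median of 354, and between 121 and 146 in ESAM-KO, with a median of 129. The spots of the arrays did not overlap, and the lowest WT spot was above every ESAM-KO spot. Over the 10 spots the mean was 347 ± 18.3 (SD over spots) in WT and 130 ± 7.44 in ESAM-KO. The log2 ratio was -1.74 (error 0.21), and the ratios of the single spots ran from -1.86 to -1.48 with an SD of 0.13. Spots of a probe share one RNA pool, so this spread describes the printing and the scan. Of the 12615 genes on both arrays, 274 (2.17%) had a lower ratio.

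**Figure D2:**
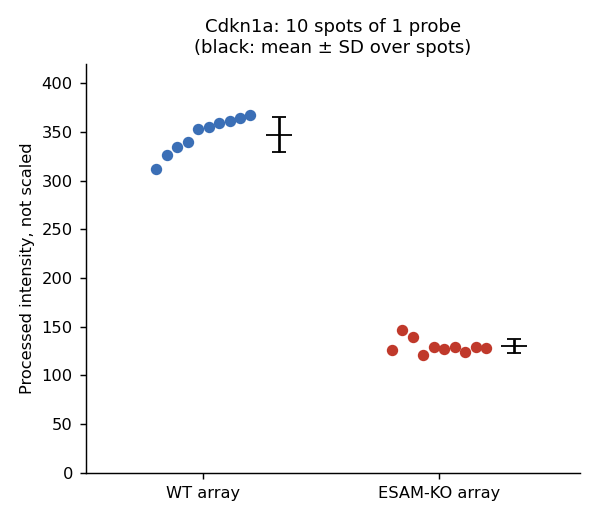
Processed intensity (vertical axis, not scaled) of the 10 spots of the main Cdkn1a probe on the WT and ESAM-KO arrays, ordered by the WT value in both columns. The black bars are the mean ± SD over spots. All WT spots lie at 312 or above and all ESAM-KO spots at 146 or below, and spots are technical repeats of 1 RNA pool per genotype.

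A second Cdkn1a probe, for the transcript NM_001111099, was dim. It read 15.7 in WT, just above the lowest signal called above background, and 9.96 in ESAM-KO, where it was not well above background. It gives only a bound, at least 1.49-fold lower in ESAM-KO, computed against the lowest signal well above background on that array. The direction was that of the main probe, and the size could not be read.

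Cdkn1b encodes p27, which holds cyclin E and CDK2 in check and accumulates as cells stop dividing. Its single spot read 956 in WT and 534 in ESAM-KO (log2 ratio -1.16, error 0.20). Of the genes on both arrays 716 (5.68%) had a lower ratio. Cdkn1b thus lay nearer to the 2-fold line than Cdkn1a, by 0.58 on the log2 scale with an error of 0.29, and without scaling between arrays its log2 ratio of -0.84 was within 2-fold.

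Cdkn1c encodes p57, an imprinted inhibitor found in quiescent stem cells. Its signal of 10.9 in WT and 12.1 in ESAM-KO could not be told from background on either array. No ratio was taken for it, and a difference in Cdkn1c was not detectable with this probe.

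The lower signals of Cdkn1a and Cdkn1b stood beside lower signals of granulocyte and late erythroid markers, while other marker lists were mixed. All 7 neutrophil markers, which are granule and calcium-binding protein genes, were more than 2-fold lower in ESAM-KO, with log2 ratios from -4.20 to -2.53, and their summed processed intensity was 48692.5 in WT and 8832 in ESAM-KO. None of the 7 was at background on either array. The summed intensity of the 8 erythroid markers was 100113 in WT and 35600.2 in ESAM-KO, most of it from Hba-a1 (69472 in WT and 18064 in ESAM-KO) and Slc4a1 (17035 in WT and 2904 in ESAM-KO). All 3 of the 5 mast cell, basophil and eosinophil markers that had a ratio were lower. Of these, Prss34 was a bound, and only Prg2 and Epx were measured on both arrays. Cpa3 and Mcpt8 were at background on both arrays. Of the 6 B cell markers 4 were lower, of which Ebf1 and Igll1 were bounds, and with normexp and quantile normalization 1 was. The megakaryocyte markers (5 with a ratio, median 0.62), the macrophage markers (4, median -0.07) and the endothelial markers (3) each had 1 lower and 1 higher. Of these, the lower megakaryocyte marker (Gp9) and the higher endothelial one (Tek) were bounds. With normexp and quantile normalization, 0 megakaryocyte markers were lower and 0 higher, and the macrophage and endothelial markers each had 1 lower and 0 higher. The part of these marker differences in the Cip/Kip ratios was not tested.

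Among the INK4 genes, Cdkn2c, which encodes p18, an inhibitor of CDK6 and CDK4 used by maturing blood cells, read 177 in WT and 388 in ESAM-KO. Its log2 ratio was 0.81 (error 0.21), below the 2-fold line, and 987 genes (7.82%) had a higher one. Set against the Cip/Kip genes on the same arrays, which needs no scaling, the log2 ratio of Cdkn2c was 2.55 above that of Cdkn1a (error 0.29) and 1.97 above that of Cdkn1b (error 0.29). So Cdkn2c gave relatively more signal in the cells in which Cdkn1a and Cdkn1b gave less.

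Cdkn2d encodes p19, the INK4 protein whose level follows the cell cycle. It read 3587 in WT and 4291 in ESAM-KO (log2 ratio -0.06 after scaling, error 0.20). That value is smaller than its error, and its sign turned to 0.26 without scaling. Its log2 ratio stood 1.68 above that of Cdkn1a (error 0.29) and 0.87 below that of Cdkn2c.

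Cdkn2a, which encodes p16 and, in another reading frame, the p53-stabilising protein Arf, and Cdkn2b, which encodes p15, are neighbours on chromosome 4 with no annotated gene between them. Both were near the limit of detection. One Cdkn2a probe gave 19.7 in WT and 18.0 in ESAM-KO (log2 ratio -0.45, error 0.37), and the other read 3.13 and 3.31, at background on both arrays. These probes carry the same accession (NM_009877), and which of the proteins' transcripts they read was not determined. One Cdkn2b probe read 3.35 in WT, at background, and 18.0 in ESAM-KO, above it, which sets only a lower bound of 1.15-fold for ESAM-KO over WT (at least 1.15-fold higher). Its other probe gave 2.86 in WT and 12.0 in ESAM-KO and was called well above background on neither array.

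The D cyclins did not move together. Ccnd1, the D cyclin that growth factor and Wnt signals induce in many tissues, read 24.0 in WT and 115.5 in ESAM-KO. Its log2 ratio of 1.95 (error 0.26) was exceeded by 86 of the genes on both arrays (0.682%). The WT value rests on a spot with a median of 78 over a local background of 45, and the ESAM-KO value on 172.5 over 39. Where background was modelled instead (normexp with an offset of 50) the ratio was 0.91 and within 2-fold, so the direction held and the size depended on how the dim WT spot was corrected. Ccnd1 had 1 probe with 1 spot. Over probes with repeated spots and a signal of 25 to 100, as for Ccnd1, the SD of the log2 ratio between spots had a median of 0.23, and the 2 probes of a gene in that range differed by a median of 0.68 and by 1.96 at the 90th percentile.

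Ccnd2, a D cyclin that cytokines induce in hematopoietic progenitors, read 1066 in WT and 1496 in ESAM-KO (log2 ratio 0.17, error 0.20). The difference is within its error. Ccnd3, the D cyclin known for setting the number of divisions of erythroid precursors, had probes for 2 transcripts. The probe of NM_001081636 read 741 in WT and 900 in ESAM-KO (log2 ratio -0.04, error 0.20), and that of NM_007632 read 715 in WT and 572 in ESAM-KO (log2 ratio -0.64, error 0.20). The Ccnd3 probes thus differed by 0.60, a gap that 37.9% of the 2568 genes with 2 measured probes reached or passed, and neither passed 2-fold. Ccnd1 exceeded Ccnd2 by 1.78 in log2 ratio (error 0.33) and Ccnd3 by 1.98 (error 0.33), whereas Ccnd2 and Ccnd3 were 0.21 apart (error 0.29).

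**Figure D3:**
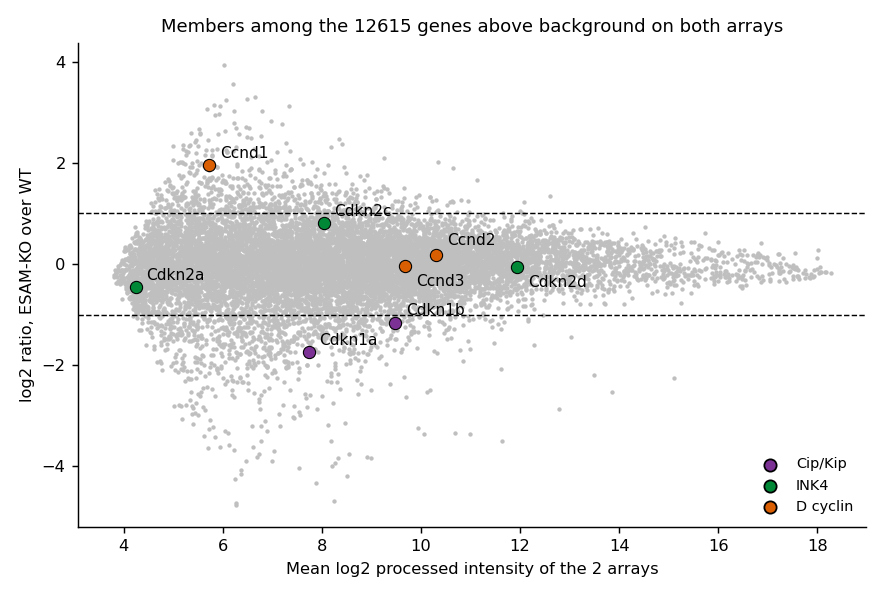
Log2 ratio of ESAM-KO over WT after scaling (vertical axis) against the mean log2 processed intensity of both arrays (horizontal axis) for the 12615 named genes well above background on both (grey) and the 8 members among them (coloured by family). The dashed lines mark 2-fold. Ccnd1 (1.95) lies above the upper line, Cdkn1a (-1.74) and Cdkn1b (-1.16) lie below the lower line, and Cdkn2c (0.81) lies just under the upper one, in a cloud that widens toward low intensity.

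How far these values depended on the processing differed by member. Over 11 other settings Cdkn1a ranged from -1.86 to -0.57 and Cdkn1b from -1.29 to -0.84, each below 0 in all 11 and past 2-fold in 10. The -0.57 of Cdkn1a is the bound from its dim second probe and not a measured size. That bound also enters its mean of probes (-1.15). Ccnd1 ranged from 0.91 to 2.27 and was past 2-fold in 10. The outlier, filter and probe settings could not move Cdkn1b or Ccnd1, each read by 1 probe above background on both arrays. Filter and probe settings likewise cannot move other genes read by 1 such probe, so counts of settings overstate how far values were varied. Cdkn2c ranged from 0.68 to 1.13 and passed 2-fold only without scaling. Cdkn2d and Ccnd3 took either sign.

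**Figure D4:**
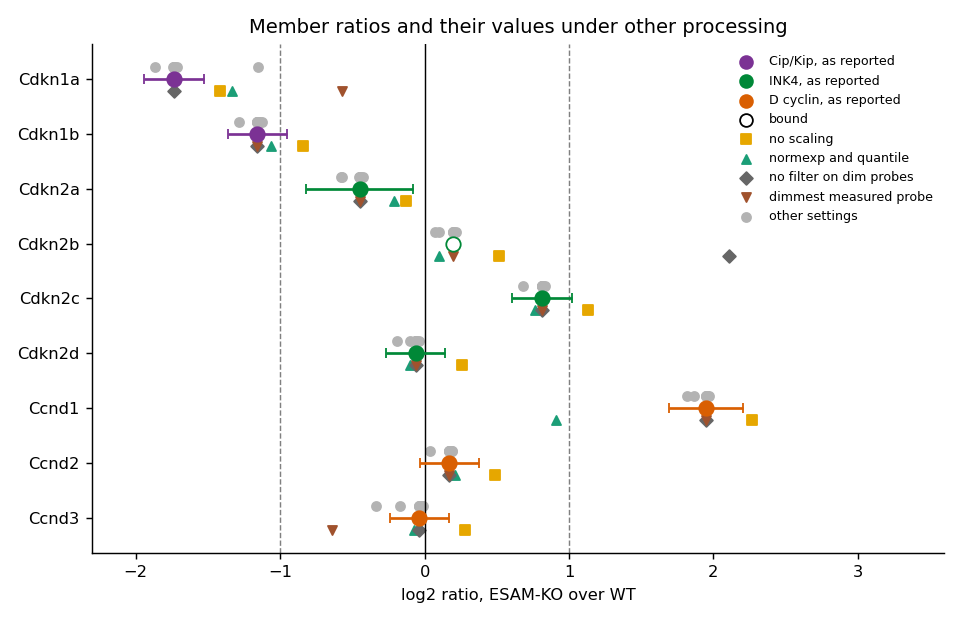
Log2 ratio of ESAM-KO over WT (horizontal axis) of the 9 members with a ratio. Large circles are the values reported, coloured by family, with the scanner software's error as bars and the bound of Cdkn2b as an open circle, and small symbols are the same gene under each of the other settings. Cdkn1a and Cdkn1b stay left of 0 and Ccnd1 and Cdkn2c stay right of it under every setting shown, while Cdkn2b lies at 2.11 when its dim WT probe is taken at face value. The small symbol of Cdkn1a at -0.57 is a bound.

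The partners of the D cyclins were next compared, from lists put together by role. The kinases Cdk4 and Cdk6, the retinoblastoma family and the E2F and DP factors made a list of 15. All had a ratio, 1 of them only a bound, and on the brightest probes none was past 2-fold in either direction. With the mean of probes or the dimmest measured probe 1 gene was higher, Rbl1, whose other probe gave a log2 ratio of 2.79. On the brightest probes the median log2 ratio of the 14 genes measured on both arrays was 0.09, beside -0.02 for all named genes. Cdk4, the main partner of the D cyclins, read 8721 in WT and 13907 in ESAM-KO (log2 ratio 0.35), and its other probes gave 0.25 and 0.51. Tfdp1, the dimerisation partner of the E2F factors, read 2784 in WT and 4517 in ESAM-KO (log2 ratio 0.38).

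The cyclins and kinases that act after the D cyclins, with the Cdc25 phosphatases that switch those kinases on, gave 13 genes with a ratio, of which 2 were lower and 2 higher, with a median of 0.10. Of all named genes 8.43% were lower and 6.99% higher, with a median of -0.02, and counts this small do not set the list apart. Ccne1, the cyclin E whose kinase Cdkn1a and Cdkn1b restrain, read 114 in WT and 423 in ESAM-KO (log2 ratio 1.57, error 0.21), and its other probe read 60.2 and 233 (log2 ratio 1.63). Both probes thus showed a difference of like size, and Ccne1 stayed past 2-fold in all 11 other settings. The Cdc25 phosphatases were split. Cdc25a, which acts at the start of S phase, read 245 in WT and 613 in ESAM-KO and stood on the 2-fold line (log2 ratio 1.00, error 0.21), and 2 of 11 settings put it within. Cdc25b (282 in WT and 141 in ESAM-KO, log2 ratio -1.31) and Cdc25c (251 in WT and 89.9 in ESAM-KO, log2 ratio -1.80), which act at the entry to mitosis, were lower. Without scaling Cdc25b was at -0.996, just within 2-fold, while Cdc25c stayed past 2-fold in all 11 other settings.

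Among 12 measured genes for ubiquitin ligases that turn over p21, p27 and the D cyclins, 1 was lower (8.33%) and none higher, with a median of -0.05, beside 8.43% lower, 6.99% higher and a median of -0.02 for all named genes. It was Fbxo4, a receptor for cyclin D1, which read 453 in WT and 245 in ESAM-KO (log2 ratio -1.21, error 0.20), and -0.89 without scaling. Skp2, the receptor for p27, was not analysed here.

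Transcription factors and chromatin proteins known to act on these genes made a list of 20 with a ratio, of which 2 were lower (10%) and 1 was higher (5%), near the 8.43% and 6.99% of all named genes, with a median of -0.33 beside -0.02. With normexp and quantile normalization 1 was lower and 0 were higher. Zbtb17, which encodes Miz-1, an activator of Cdkn1a and Cdkn2b that Myc opposes, read 232 in WT and 90.7 in ESAM-KO (log2 ratio -1.67, error 0.21) and was past 2-fold in all 11 other settings. Gfi1, a repressor with known roles in granulocytes and in control of Cdkn1a, read 60.9 in WT and 3.51 in ESAM-KO, at background, and was at least 5.77-fold lower, although with normexp its log2 ratio of -0.85 was within 2-fold. Mycn read 15.7 in WT and 79.0 in ESAM-KO (log2 ratio 2.01, error 0.35), and 0.73 with normexp. The p53 gene Trp53, read by 1 probe at 3590 in WT and 3242 in ESAM-KO, had a log2 ratio of -0.47 and was not past 2-fold. Gfi1 stood beside the 7 lower neutrophil markers, and their part in its value was not tested.

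None of the proliferation genes was past 2-fold. All 15, among them the origin licensing factors of the MCM family and the division marker Mki67, had log2 ratios from -0.19 to 0.63 with a median of 0.00 to 2 decimals, beside -0.02 for all named genes. The brightest of them were Mcm6, at 32210 in WT and 39124 in ESAM-KO (log2 ratio -0.04), and Mcm7, at 20438 in WT and 24354 in ESAM-KO (log2 ratio -0.07).

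**Figure D5:**
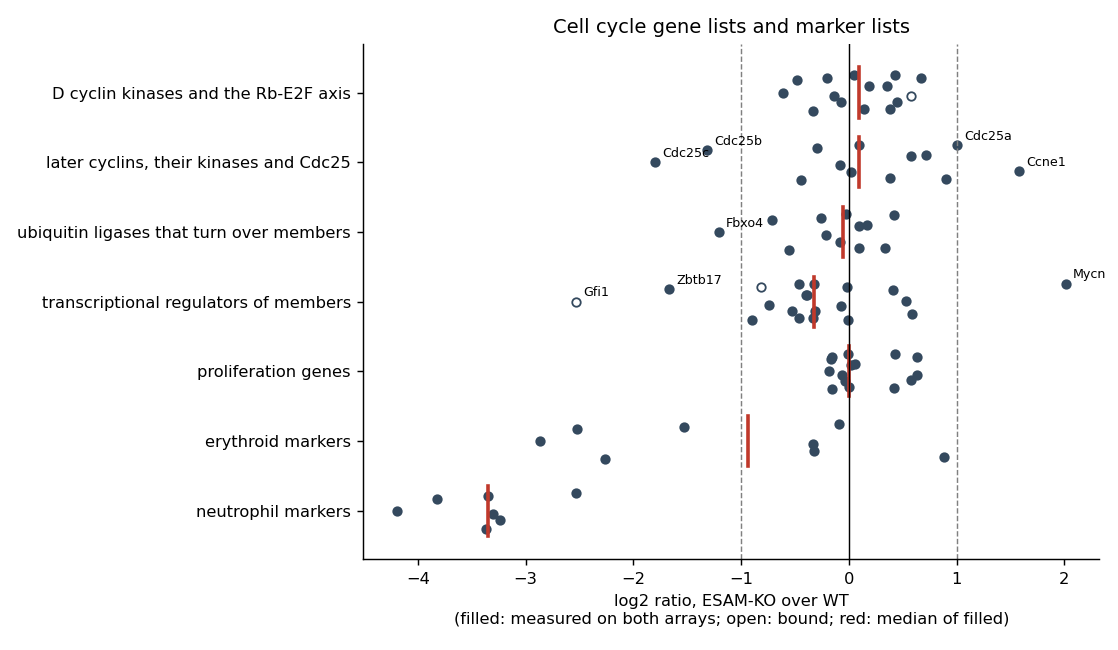
Log2 ratio of ESAM-KO over WT (horizontal axis) of each gene (circle) in 5 cell cycle lists and in the erythroid and neutrophil marker lists (rows), where vertical offsets within a row only separate the circles. Filled circles were measured on both arrays, open ones are bounds, the red lines are medians of the filled ones and dashed lines mark 2-fold. The partner and proliferation lists centre near 0 with medians of 0.09 and 0.00, while all 7 neutrophil markers lie left of -2.53 or on it.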

How the data were processed

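The authors deposited 1 file per array from Agilent Feature Extraction 10.10.1.1, with the processed intensity of each spot after background subtraction within the array, and with flags. The series table holds the same intensity rounded, without scaling between arrays. Intensities were divided by the 75th percentile of their array and taken to log2. Control spots and 254 outlier spots were left out, and no member spot was among them. Spots of a probe were averaged, and a gene was read by its brightest probe. Over 50% of a probe's spots had to be well above background for it to count as such. Otherwise the ratio is a bound against the lowest signal well above background on that array, and none is given where both arrays were at background. Probe accessions were matched to RefSeq accessions of GRCm38.p6, used for names alone, and 48.9% of the probes got a name. The array design's build was mm9, and no coordinates of probes are given.

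With 1 array per genotype no test was run, and the number of arrays limits the precision. The members and lists were chosen with earlier results of these data known. Named are all members with all probes, genes of the 5 cell cycle lists past 2-fold, the 2 brightest of a list with none, and Esam, and Trp53 and single marker genes were named after their values were seen. One erythroid marker is not reported here and entered no list value. The alternatives were other scalings, normexp with an offset of 50 on median spot signals, the series table, other filters and probe summaries, and thresholds of 1.5-fold and 3-fold. The counting was tested on simulated data with large changes put into bright genes only. Changes near 2-fold, changes in dim probes and bounds were not covered by it. Python 3.11.15, pandas 2.3.3, numpy 2.4.6, R 4.3.3 and limma 3.58.1 were used.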

Additional observations from a re-analysis of the deposited data

How the results depend on the processing

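No paired analysis was possible because only 1 array was made per genotype. Of 98 values of single members under other settings, 84 changed by less than that member's scanner error, 14 by more, and none of those whose value was past 2-fold changed sign. Many of the 98 could not change. No member spot was an outlier, most members had 1 measured probe, and the series table holds the same intensities rounded. The count of 84 is therefore not a measure of robustness. By more than 2-fold, 2 members were lower and 1 was higher, with a median log2 ratio of -0.05. Without scaling, 1 member was lower (Cdkn1a), 2 were higher (Ccnd1 and Cdkn2c) and the median was 0.27, and the median of all named genes moved by 0.32, with 729 of them lower and 1804 higher in place of 1191 and 988. Normexp with quantile normalization left 0 members higher, since it held Ccnd1 at 0.91, and called 488 genes lower and 239 higher. Without the filter on dim probes 2 members were higher, as Cdkn2b entered. The dimmest measured probe of each gene left 1 member lower, since Cdkn1a was then only a bound. A threshold of 1.5-fold gave 2 higher members, with Cdkn2c, and one of 3-fold gave 1 lower member, without Cdkn1b. Scaling to the median moved all named genes by -0.13, with 1513 lower and 751 higher, and kept the member counts at 2 and 1. Signal over background limits Cdkn1c, Cdkn2a and Cdkn2b, whose probes read under 20 on both arrays, and the size of the Ccnd1 difference. The Ccnd1 direction held in every setting, but all settings use the same 1 spot per array and cannot test it.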

Other observations

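For some genes of the cell cycle lists the probes of 1 gene differed by more than 2-fold. They were picked after their values were seen, and the list values reported above are those of the brightest probe unless another probe or setting is named. Rbl1, which encodes the retinoblastoma relative p107, had a log2 ratio of -0.14 on the probe of NM_001139516 (613 in WT and 693 in ESAM-KO) and of 2.79 on another (33.7 in WT and 291 in ESAM-KO). Foxo1, a FOXO factor that acts on inhibitor genes, gave 0.53 (84.6 in WT and 152 in ESAM-KO) and -1.14 (62.4 in WT and 35.2 in ESAM-KO). E2f7, a repressor among the E2F factors, gave 0.67 and -0.80, Cdk7, a kinase that activates other CDKs, gave -0.45 and 0.99, and Fbxo31, a ligase receptor for cyclin D1, gave -0.26 and 1.64. A direction is therefore not given for these 5 genes. Over all 2568 genes with 2 measured probes the median difference was 0.42 and the 90th percentile 1.53. The probes of Ccne1 (1.57 and 1.63), of Cks1b (0.42 and 0.45) and of Cdk4 (0.35, 0.25 and 0.51) lay closer together than that median.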
